A study of Homo sapiens with 18 samples.

Results

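SH-SY5Y cells left untreated were compared between 48 and 3 h of a sarin exposure experiment, the longest interval in culture that the series covers without sarin. The comparison takes every array titled as an untreated control of those times, which is 6 of the 18 arrays, 3 at each time. SH-SY5Y is an established line from a human neuroblastoma, a tumour of the sympathetic lineage, and as 1 line it does not stand for neurons in general. The groups used are untreated cells at 3, 24 and 48 h and, beside them, sarin-exposed cells (5 ppm) at 3 and 24 h, with 3 arrays each. Sarin-exposed cells at 48 h enter only as part of a fit on all 18 arrays. Sarin inhibits acetylcholinesterase, which clears the transmitter acetylcholine. The labels name 6 flasks per group beside 3 arrays and do not say which flasks an array holds, so p-values measure the spread between arrays, which may be technical. The labels give neither the time since plating nor changes of medium.

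Cells that stay in a closed flask divide, become dense and use up what the medium holds. Background knowledge links such culture to the cell cycle machinery, where E2F factors switch on the genes of DNA replication, and to the hypoxia pathway, where HIF factors switch on genes with a hypoxia response element. It also links it to nutrient signalling, in which DDIT4 restrains the growth kinase complex mTORC1 and the factor ATF4 switches on genes of amino acid supply. These pathways set the order below, after the single genes that passed the test.

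Each array gives 1 signal value per probe set on a linear scale. The mean of the deposited signals, computed here with 2% trimmed at each end, was 800.2 to 800.3 on the 6 arrays. Of 11963 genes, 7178 lay above a level filter and were tested. Within a time, arrays correlated at 0.90 to 0.94 at 3 h and at 0.96 to 0.97 at 48 h (Pearson r across genes, which are not independent replicates). Replicate 3 at 3 h stood apart: among the 72 genes in the highest 1% by level at 48 h, all 72 were higher on it than on the other two 3 h arrays, by a median of 2.23-fold. The median signal of an array was 310.2 to 339.2 at 3 h and 347.0 to 373.0 at 48 h, and the mean log2 signal of the hybridisation spike-ins, bacterial RNAs added to each sample, was 10.67 to 11.21 at 3 h and 11.34 to 11.98 at 48 h. Neither range overlapped, and their part in the results below was not tested. Scaled to the spike-ins, the median of all genes moved by -0.70 on the log2 scale, so every difference below is relative to the other genes, and any gene less than 0.70 higher would lie below 0 on that scale. The 3' over 5' ratio of GAPDH was 0.696 to 0.999 at 3 h and 0.703 to 0.955 at 48 h. That of ACTB was 0.790 to 1.14 at 3 h and 1.07 to 1.44 at 48 h, overlapping but higher at 48 h, and its part in the results was not tested.

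The line's own markers were present at both times. Of 14 markers of noradrenergic neuroblastoma with a probe set, 12 lay above background on all 6 arrays, among them the transcription factors PHOX2A, GATA2, GATA3 and ISL1 and the neuronal proteins STMN2 and ELAVL4. TH, the first enzyme of catecholamine synthesis, was not above background on any array of either time. Markers of flat, substrate-adherent cells were present too, 10 of 12 above background on all 6 arrays. Of 70 markers of glial, blood, epithelial and hepatic, and endothelial and muscle cells, 21 lay above background on all 6 arrays and 14 on none. Their summed signal overlapped between the times, for example 3659 to 6387 at 3 h and 5391 to 6862 at 48 h for the glial list. In limma, 0 of the 16 tested passed.

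Only 8 of the 7178 genes passed limma's test between 48 and 3 h at an adjusted p under 0.05 (0.111%). The 6 that rose (0.0836% of genes tested) were SCD5, TCTN2, DDIT4, ZNF253, ORAI3 and CIB2, and the 2 that fell (0.0279%) were APP and PBX2. The median difference over all genes was 0.05 on the scale of log2(signal + 16), which understates the change of dim genes. At an unadjusted p under 0.05 there were 558 genes higher (7.77%) and 356 lower (4.96%). All 3 arrays of 48 h lay above all 3 of 3 h for 736 genes (10.3%) and below them for 509 (7.09%). The side depended on level: in the dimmest tertile of tested genes 13.8% were higher and 2.42% lower in this sense, against 6.44% and 12% in the brightest tertile, so a list of bright genes is read against the second pair. The count itself hung on single arrays: 120 genes passed without replicate 2 of 3 h, 5 without replicate 1 of 3 h, and 2, 3 and 3 without replicates 1, 2 and 3 of 48 h.

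**Figure D1:**
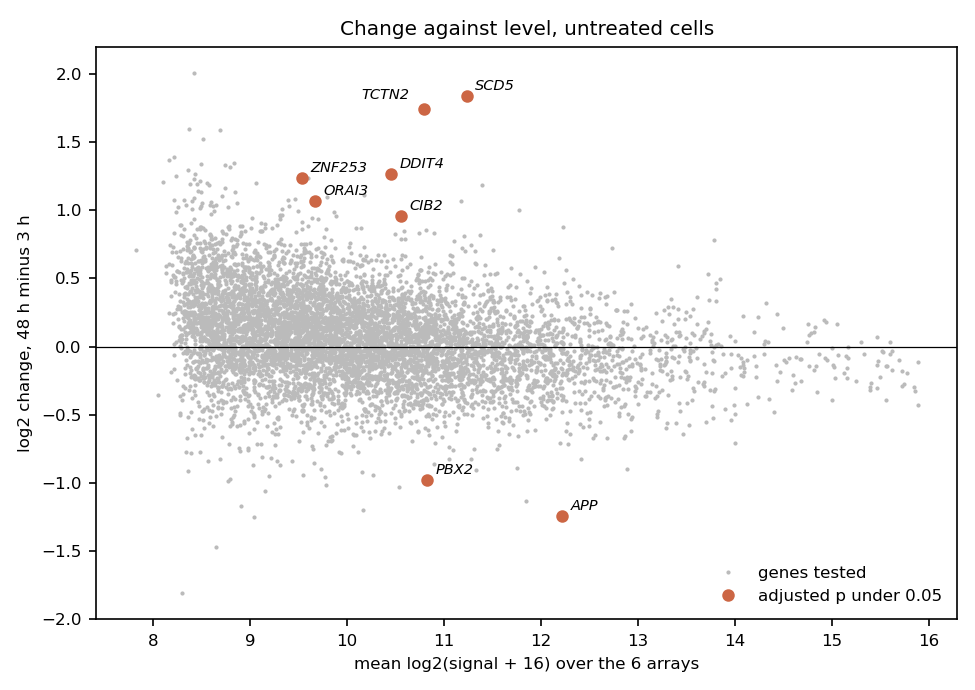
Log2 difference between untreated cells at 48 and 3 h (vertical axis) against the mean log2(signal + 16) over the 6 arrays (horizontal axis) for the 7178 genes tested, 1 grey point per gene, with the 8 genes past the threshold named. SCD5 at 1.84 and TCTN2 at 1.74 lie above the others past the threshold, APP at -1.25 lies lowest of the 8, and dim genes spread further than bright ones.

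SCD5 encodes a stearoyl-CoA desaturase, an enzyme of the endoplasmic reticulum that makes monounsaturated fatty acids. Its signal was 1018, 1453 and 1336 on the 3 h arrays and 3813, 5362 and 4566 on the 48 h arrays. All arrays of 48 h lay far above those of 3 h, a 3.58-fold rise (log2 1.84 ± 0.21, SE, limma adjusted p = 0.00187). The rise was as large at 24 h (log2 1.84 against 3 h, adjusted p = 0.000969), and the step from 24 to 48 h was 0.01 (adjusted p = 0.994). SCD, the desaturase of the same family that most tissues use, did not pass, at 907, 972 and 1051 at 3 h against 1469, 1160 and 938.7 at 48 h (log2 0.26 ± 0.19, adjusted p = 0.601), and 3 of its 4 probe sets differ from this one in sign.

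TCTN2 encodes a tectonic protein of the transition zone at the base of the primary cilium. The 3 h arrays gave 893.0, 1018 and 959.3 and the 48 h arrays 2806, 3460 and 3502. The groups were well separated, with a 3.35-fold rise (log2 1.74 ± 0.15, limma adjusted p = 0.000114). At 24 h the gene stood at 2617, 2775 and 2306, already higher than at 3 h (log2 1.41, adjusted p = 0.000564). The probe set bears the array maker's suffix for probes that may also match other transcripts, as does that of ZNF253, and neither gene has another one here.

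DDIT4, also known as REDD1, encodes a stress-induced inhibitor of mTORC1 and is a known target of HIF. Its signal was 974.0, 856.0 and 846.5 at 3 h and 2636, 2028 and 1892 at 48 h. The arrays did not overlap, and the rise was 2.40-fold (log2 1.27 ± 0.17, limma adjusted p = 0.00614). Without replicate 1 of 48 h, the brightest, the adjusted p was 0.0573.

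ZNF253, a KRAB-type zinc finger protein gene, rose from 424.9, 507.8 and 473.4 to 980.4, 1129 and 1280 (2.36-fold, log2 1.24 ± 0.19, limma adjusted p = 0.0280). Its 24 h arrays lay between, at 639.2, 709.4 and 741.5, and did not pass against 3 h (log2 0.56, adjusted p = 0.108). ORAI3, a subunit of plasma membrane calcium channels that open when stores are emptied, rose from 614.1, 574.0 and 464.0 to 1175, 1030 and 1299 (2.09-fold, log2 1.07 ± 0.19, adjusted p = 0.0492). CIB2, a calcium- and integrin-binding protein, rose from 990.9, 1123 and 1086 to 2093, 2027 and 2138 (1.94-fold, log2 0.96 ± 0.16, adjusted p = 0.0421). No array of 3 h reached one of 48 h in these 3 genes. Other probe sets of CIB2 gave 0.29 ± 0.24 and -0.06 ± 0.54, both with overlapping arrays, so the rise rests on 1 of 3. The probe set at -0.06 had means of 79.3 and 64.3, at the level of background, and says little in either direction. Calls for these genes were lost when single arrays were left out. ZNF253 lost its call without replicate 1 of 3 h or any array of 48 h (adjusted p 0.0781 to 0.318), and CIB2 and ORAI3 without any array other than replicate 2 of 3 h (0.0617 to 0.318 and 0.0695 to 0.409).

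APP, the precursor of amyloid beta and a membrane protein abundant in neurons, fell from 6117, 6691 and 9636 at 3 h to 2540, 3441 and 3349 at 48 h. The groups did not overlap, and the drop was 2.37-fold (log2 -1.25 ± 0.20, limma adjusted p = 0.0280). The highest 3 h value is that of replicate 3, the array that stood apart, and without it the log2 difference was -1.05 with an adjusted p of 0.0522. The other probe sets of APP gave -0.81 ± 0.25 and -0.07 ± 0.35, and the second overlapped. PBX2, a homeodomain cofactor of HOX proteins, fell from 2232, 2885 and 2523 to 1129, 1515 and 1207 (1.98-fold, log2 -0.98 ± 0.17, adjusted p = 0.0421). Its 3 other probe sets gave -0.27, 0.07 and -0.23, all overlapping. Left out singly, each array of 48 h ended the call of APP (adjusted p 0.0882 to 0.140), and each of the 6 arrays other than replicate 2 of 3 h that of PBX2 (0.0695 to 0.318).

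**Figure D2:**
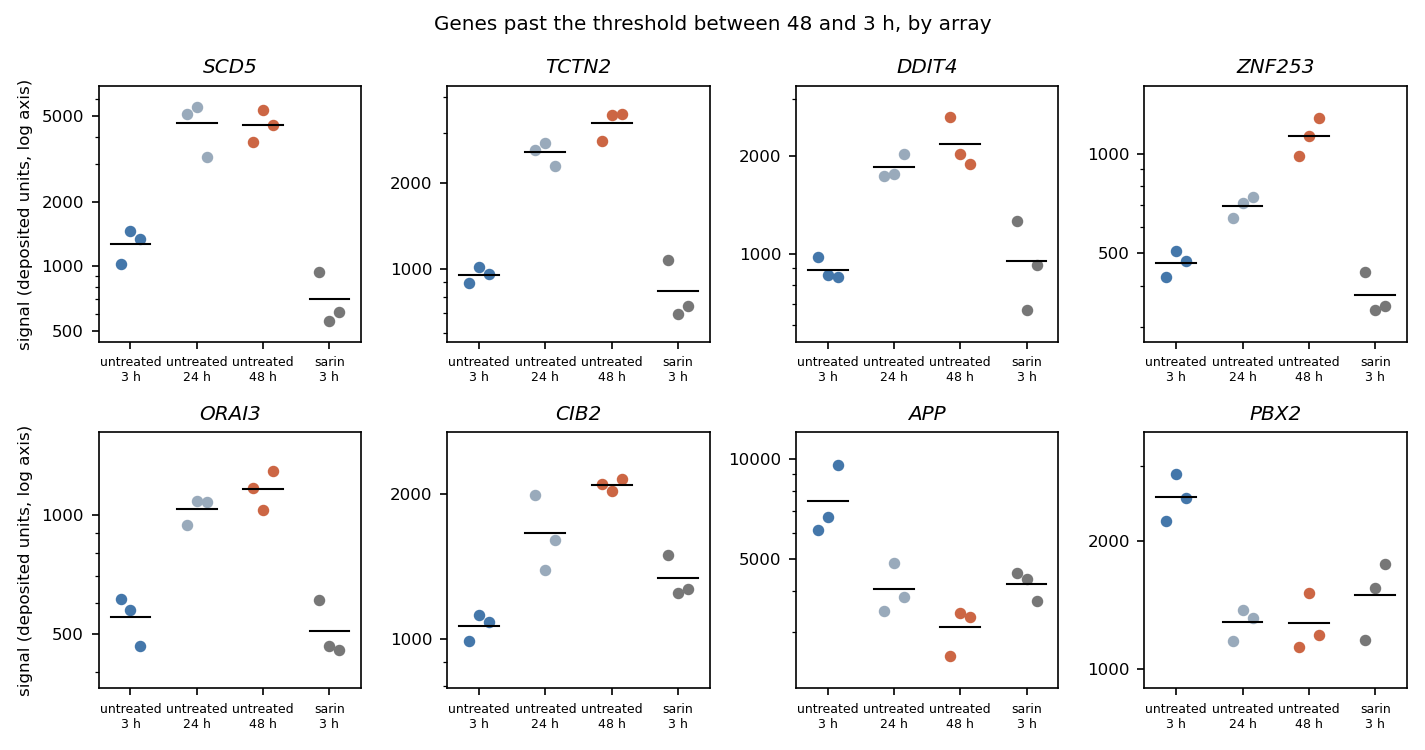
Signal by array (log axis, deposited units) of the 8 genes past the threshold in untreated cells at 3, 24 and 48 h and in sarin-exposed cells at 3 h, 1 point per array and a line at each group's mean. The 48 h arrays of the 6 genes that rose lie above both 3 h groups, and in PBX2 the sarin-exposed 3 h arrays, at 1173 to 1771, overlap those of 48 h.

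The 3 h arrays of sarin-exposed cells are another set of cells at the same time, though not untreated ones. They share the 48 h arrays with the comparison above, so values stand side by side and are no independent support. In the fit with these arrays, 220 genes were higher at 48 h (3.06%) and 171 lower (2.38%). The 6 genes that rose gave log2 differences of 2.70 for SCD5, 1.95 for TCTN2, 1.55 for ZNF253, 1.22 for DDIT4, 1.18 for ORAI3 and 0.64 for CIB2, all past the threshold, with adjusted p of at most 0.0209. APP gave -0.44 (adjusted p = 0.134) and PBX2 -0.21 (adjusted p = 0.468), neither past it. In sarin-exposed cells at 24 h, TCTN2 stood at 1022, 1168 and 1195 and ORAI3 at 670.0, 515.9 and 573.4, below all 3 untreated arrays of that time in each gene, while DDIT4 at 2681, 2458 and 1863 overlapped them. The other genes closest to the threshold in the lower direction were HAND1, ID1 and MCM5, at adjusted p of 0.0643, 0.0643 and 0.0661.

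Genes of DNA replication leaned lower at 48 h, without any gene past the test. Of 48 listed, 45 were tested, and 10 had all arrays lower (22.2%, against 7.09% of all genes and 12% of the brightest tertile, which holds 23 of the 45). The 2 with all arrays higher were 4.44%, against 10.3% of all genes and 6.44% of that tertile. In limma 0 passed, and at an unadjusted p under 0.05 there were 10 lower and 2 higher. The median was -0.16, beside 0.05 for all genes. Per array the median of the list was 0.05 to 0.14 above the mean of untreated cells at 3 h and 0.07 to 0.08 below it at 48 h, with no overlap. At 24 h it ranged from 0.10 below to 0.01 above. The list's median difference was -0.11 from 3 to 24 h (0.08 over all genes) and -0.03 from 24 to 48 h (-0.03 over all genes). Between 48 and 3 h it was -0.12 to -0.21 when any 1 array was left out. Against the 3 h arrays of sarin-exposed cells it was -0.26.

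MCM5 and MCM6 are subunits of the MCM helicase that opens DNA at origins. MCM5 stood at 2602, 2054 and 1750 at 3 h and 1094, 1128 and 862.5 at 48 h (log2 -1.03 ± 0.20, limma adjusted p = 0.0661), and its second probe set gave -0.35 ± 0.22 with overlap. MCM6 stood at 7142, 5032 and 6875 against 4132, 3874 and 4036 (log2 -0.64 ± 0.16, adjusted p = 0.152). Each gene's 3 arrays of 48 h lay below all of 3 h. FEN1, the nuclease that trims Okazaki fragments, had 3947, 3671 and 4640 against 2641, 2587 and 2559 (log2 -0.64 ± 0.14, adjusted p = 0.112). Its second probe set gave 0.08 ± 0.20 with overlap, and without replicate 3 of 3 h, where that one is the brighter and stands for the gene, the difference was -0.17. RFC4, of the complex that loads the PCNA clamp, had 3682, 3639 and 3851 against 2106, 2709 and 2455 (log2 -0.62 ± 0.18, adjusted p = 0.232).

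E2F factors bind near the starts of many such genes, so the 250 bases before the start were searched on both strands for TTTCCCGC, TTTCGCGC, TTTGCCGC and TTTGGCGC, words that can overlap each other's reverse complement. RefSeq promoters (GRCh38.p14) matched 40 of the 45 genes, and 14 of them held a word (35.0%), beside 4.52% of the promoters of all tested genes and 2.79% of all 27305 promoters. Among the 8 matched members whose arrays were all lower, 4 held one. The members with the smallest p that held a word were MCM6 and MCM3, shown to let their spacing be read. They lie at chr2:135876444-135876693 and chr6:52284743-52284992, both on the minus strand, written 5′ to 3′ with the words in capitals.
MCM6: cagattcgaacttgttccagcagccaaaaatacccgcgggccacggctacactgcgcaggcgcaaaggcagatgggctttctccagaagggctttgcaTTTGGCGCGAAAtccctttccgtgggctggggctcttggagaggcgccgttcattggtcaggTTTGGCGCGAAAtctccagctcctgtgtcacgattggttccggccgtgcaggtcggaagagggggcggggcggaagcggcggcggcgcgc
MCM3: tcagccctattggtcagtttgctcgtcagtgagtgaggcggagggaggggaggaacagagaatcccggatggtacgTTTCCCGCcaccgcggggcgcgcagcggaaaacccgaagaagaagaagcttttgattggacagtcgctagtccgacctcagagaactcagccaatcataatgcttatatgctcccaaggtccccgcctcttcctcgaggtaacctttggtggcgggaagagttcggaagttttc
MCM6 holds 2 pairs of overlapping words, beginning 152 and 148 and again 90 and 86 bases before the start, and MCM3 1 word, 174 bases before it. MCM3, chosen for its promoter after its values were seen, was at 8430, 4046 and 7483 against 4064, 4127 and 3417 (log2 -0.72 ± 0.22, limma adjusted p = 0.243), and its arrays overlapped. A word is a description of the sequence and does not show binding.

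Mitotic genes were centred on 0. All 42 on the list were tested and had a median of 0.00, with 1 member all higher (2.38%) and 5 all lower (11.9%). The shares were 10.3% and 7.09% of all genes, and 6.44% and 12% of the brightest tertile, which holds 34 of the 42. In limma 0 passed, with 1 in each direction at an unadjusted p under 0.05. The list's median was -0.26 from 3 to 24 h (0.08 over all genes) and 0.30 from 24 to 48 h (-0.03 over all genes). MKI67, the proliferation antigen Ki-67, was at 2062, 2081 and 1771 against 1539, 2020 and 2224. CCNB1, the mitotic cyclin, was at 4268, 5138 and 3562 against 3916, 4420 and 4325. CDK1, its kinase, was at 5865, 3798 and 5021 against 4541, 4003 and 4050. Arrays overlapped in all 3 genes (log2 -0.05, -0.02 and -0.20, adjusted p 0.938, 0.974 and 0.680), and the sign of each turned under at least 1 alternative.

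The list of cell cycle arrest and quiescence, which also holds the cyclin CCND1, had 21 genes tested and a median of 0.23. All higher were 3 (14.3%, against 10.3% of all genes), and all lower was 1, CCND1 (4.76%, against 7.09%). In the brightest tertile, which holds 11 of the 21, the shares were 6.44% and 12%. None passed limma's test, and 3 were higher and 1 lower at an unadjusted p under 0.05. The median was 0.10 to 0.22 with 1 array left out, lowest without replicate 1 of 3 h. CDKN1C, the CDK inhibitor p57, was at 919.3, 1056 and 1154 against 1559, 1788 and 1648 (log2 0.67 ± 0.15, adjusted p = 0.118). CCND1, the G1 cyclin D1, was at 4956, 5063 and 4504 against 3567, 3344 and 2640 (log2 -0.61 ± 0.16, adjusted p = 0.212). Both were separated on all arrays, in opposite directions, while the CDK inhibitor CDKN1A (p21) overlapped (log2 -0.28 ± 0.25). Of the 5 probe sets of CDKN1C, 1 had the other sign, at means of 32.8 and 20.5, the level of background. GADD45A, a stress gene of the p53 response, had 288.0, 350.8 and 184.0 against 823.2, 671.9 and 581.5 (log2 1.32 ± 0.29, adjusted p = 0.112), and its difference from the sarin-exposed 3 h arrays was 0.29.

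Hypoxia-inducible genes outside glycolysis leaned higher. Of 36 listed, 29 were tested, and 25 had a difference above 0. In 7 all arrays were higher (24.1%, against 10.3% of all genes) and in 1 all were lower (3.45%, against 7.09%). The median was 0.27, against 0.05 for all genes, and 1 member, DDIT4, passed limma's test, with 9 higher and 0 lower at an unadjusted p under 0.05. Leaving out any 1 array gave medians of 0.25 to 0.34, and quantile normalization 0.23. Against the sarin-exposed 3 h arrays the median was 0.47. The difference was present by 24 h: the list's median was 0.35 from 3 to 24 h (0.08 over all genes). From 24 to 48 h it was 0.04 (-0.03 over all genes). Per array the list's median was 0.05 to 0.28 below the untreated mean at 3 h. It was 0.07 to 0.12 above that mean at 24 h and 0.06 to 0.16 above it at 48 h.

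Beside DDIT4, the members with the smallest p were INSIG2, EGLN1 and PLOD2. INSIG2, which holds back cholesterol synthesis, was at 354.7, 575.5 and 358.3 against 711.4, 709.6 and 725.7 (log2 0.75 ± 0.23, limma adjusted p = 0.243). EGLN1, the oxygen sensor PHD2, was at 843.4, 894.1 and 1000.1 against 1541, 1191 and 1442 (log2 0.60 ± 0.19, adjusted p = 0.259). PLOD2, a collagen lysyl hydroxylase, was at 534.0, 979.0 and 335.7 against 817.4, 1231 and 1294 (log2 0.94 ± 0.31, adjusted p = 0.272). Only PLOD2 overlapped among these, and VEGFA, the vascular growth factor, also overlapped (log2 0.31 ± 0.19, adjusted p = 0.512).

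HIF binds a core of ACGTG, which was searched on both strands in the same window. It was present in 12 of the 24 members matched (50%), in 5 of the 7 whose arrays were all higher, and in 23.9% of the promoters of all tested genes and 18.7% of all promoters. The members with the smallest p that held it were DDIT4 and INSIG2, at chr10:72273674-72273923 and chr2:118088221-118088470 on the plus strand, shown with the core in capitals.
DDIT4: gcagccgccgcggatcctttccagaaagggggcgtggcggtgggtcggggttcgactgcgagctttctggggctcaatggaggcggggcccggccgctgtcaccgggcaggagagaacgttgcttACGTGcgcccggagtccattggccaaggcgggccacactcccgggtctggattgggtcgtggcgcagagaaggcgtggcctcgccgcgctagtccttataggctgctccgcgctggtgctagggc
INSIG2: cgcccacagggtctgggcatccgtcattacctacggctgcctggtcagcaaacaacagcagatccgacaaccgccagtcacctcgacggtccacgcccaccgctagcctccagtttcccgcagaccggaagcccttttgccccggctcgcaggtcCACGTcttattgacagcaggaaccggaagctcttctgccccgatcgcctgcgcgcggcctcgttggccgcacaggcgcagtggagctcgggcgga
The core begins 125 bases before the start in DDIT4 and 95 bases before it, on the other strand, in INSIG2. Of the DNA replication genes matched, 11 of 40 held it as well (27.5%).

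**Figure D3:**
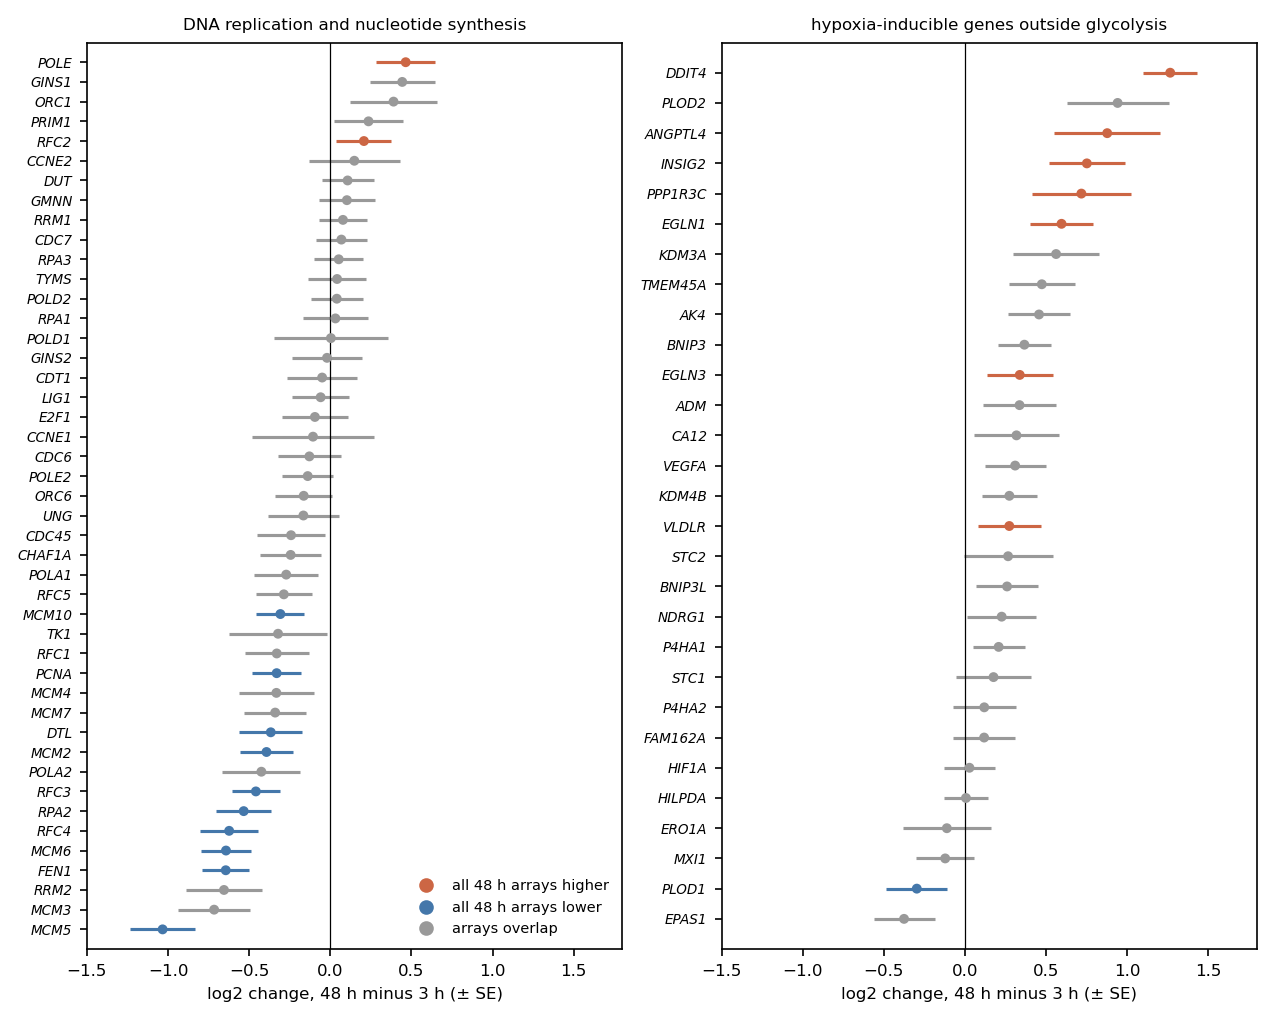
Log2 difference between 48 and 3 h with its standard error (horizontal axis) for the 45 tested DNA replication genes (left) and the 29 tested hypoxia-inducible genes (right), 1 row per gene, coloured by whether the arrays of both times overlap. MCM5 at -1.03 and DDIT4 at 1.27 lie at the ends, and 10 replication genes and 1 hypoxia gene have all 48 h arrays lower.

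Of 25 glycolytic genes tested, 5 had all arrays higher (20.0%, against 10.3% of all genes) and 0 all lower (against 7.09%). In the brightest tertile, which holds 17 of the 25, the shares were 6.44% and 12%. The list's median was 0.05, beside 0.05 for all genes, but 0.19 without replicate 3 of 3 h and 0.18 against the sarin-exposed 3 h arrays. In limma 0 passed, with 5 higher and 0 lower at an unadjusted p under 0.05. ENO2, the neuronal enolase, was at 2329, 2162 and 2313 against 3811, 3931 and 3408 (log2 0.71 ± 0.13, adjusted p = 0.0643). PFKFB3, which makes the activator of phosphofructokinase, was at 487.4, 381.7 and 247.9 against 692.8, 583.9 and 870.2 (log2 0.94 ± 0.28, adjusted p = 0.235). PYGL, the liver glycogen phosphorylase, was at 373.7, 371.0 and 148.1 against 465.7, 535.9 and 488.9 (log2 0.81 ± 0.32, adjusted p = 0.336), and the difference was 0.40 without replicate 3 of 3 h. SLC2A1, the glucose transporter GLUT1, differed by 0.43 ± 0.17 (adjusted p = 0.336). The 48 h arrays lay above those of 3 h in all 4.

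Genes of the ATF4 response to amino acid shortage went both ways. Of 34 tested, 8 had all arrays higher (23.5%, against 10.3% of all genes) and 4 all lower (11.8%, against 7.09%). In the brightest tertile, which holds 19 of the 34, the shares were 6.44% and 12%, so the share lower is near that of bright genes. The median was 0.09, and in limma 0 passed, with 5 higher and 2 lower at an unadjusted p under 0.05. MTHFD2, the mitochondrial folate enzyme, was at 1848, 1790 and 1930 against 3062, 2926 and 3086 (log2 0.70 ± 0.14, adjusted p = 0.0661). PSPH, the last enzyme of serine synthesis, was at 764.7, 901.0 and 423.0 against 1096, 1382 and 1471 (log2 0.96 ± 0.28, adjusted p = 0.235). TRIB3 and DDIT3 (CHOP), stress genes that ATF4 induces, differed by 0.60 ± 0.18 and 0.47 ± 0.20, without overlap. In the other direction lay NARS1, the asparaginyl-tRNA synthetase (log2 -0.43 ± 0.15, adjusted p = 0.292), and ASNS, the asparagine synthetase, at 2116, 2246 and 1983 against 1476, 1808 and 1888 (log2 -0.30 ± 0.16, adjusted p = 0.467).

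Genes of the unfolded protein response and chaperones of the endoplasmic reticulum, taken as 1 list, had more members lower than higher. Of 28 tested, 8 had all arrays lower (28.6%, against 7.09% of all genes) and 3 all higher (10.7%, against 10.3%). In the brightest tertile, which holds 17 of the 28, the shares were 12% lower and 6.44% higher. In limma 0 passed, with 9 lower and 4 higher at an unadjusted p under 0.05, and the median was -0.08. HSPA5, the chaperone BiP, was at 7992, 6387 and 8382 against 4546, 4587 and 5278 (log2 -0.65 ± 0.20, adjusted p = 0.241). HYOU1, which works with it, was at 7508, 5829 and 7938 against 4846, 4643 and 4589 (log2 -0.58 ± 0.15, adjusted p = 0.212), and SDF2L1 at 1770, 1501 and 1289 against 979.7, 916.6 and 920.9 (log2 -0.67 ± 0.17, adjusted p = 0.179). DERL1, of the machinery that exports misfolded proteins, gave -1.20 ± 0.23 (adjusted p = 0.0661) by 1 probe set and 0.04 ± 0.25 by the other, so its probe sets disagree. The list's median ranged from -0.28 to 0.02 with 1 array left out, and was 0.06 against the sarin-exposed 3 h arrays, so its direction is not settled here.

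**Figure D4:**
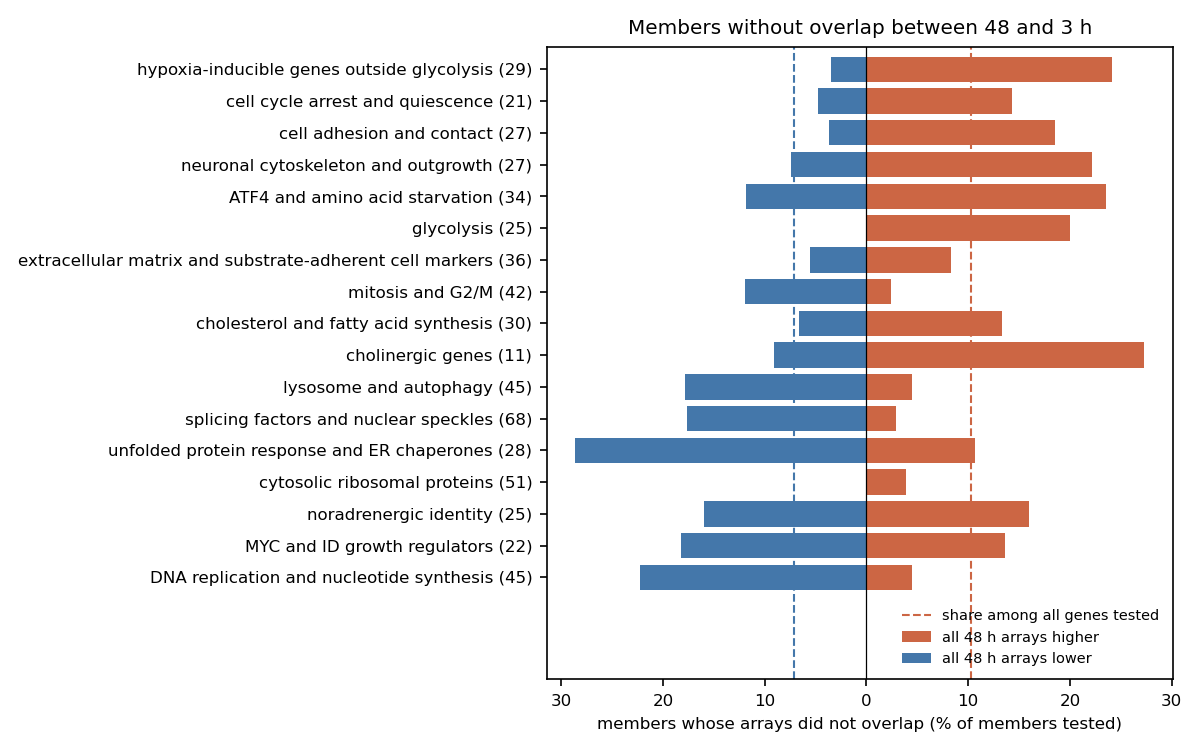
Share of tested members whose 3 arrays at 48 h all lay above (right) or below (left) those at 3 h for 17 lists, with the number tested in brackets and dashed lines at the shares among all genes, 10.3% and 7.09%. Among these 17, genes of the unfolded protein response and endoplasmic reticulum chaperones (28.6%) and DNA replication genes (22.2%) extend furthest to the left. Cholinergic (27.3% of 11), hypoxia-inducible (24.1%) and ATF4 genes (23.5%) extend furthest to the right. Other lists were scored and are not shown, among them TGF-beta, BMP, Notch and Wnt genes (26.1% of 23 all higher, 17.4% all lower).

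Among growth regulators, ID1 and ID3, whose proteins block differentiation factors of the bHLH family, lay lower on all arrays. ID1 stood at 5806, 4033 and 4394 at 3 h and 2959, 2246 and 2391 at 48 h (log2 -0.89 ± 0.17, limma adjusted p = 0.0643). ID3 stood at 5352, 2979 and 2678 against 2214, 1853 and 1568 (log2 -0.90 ± 0.24, adjusted p = 0.213). MYC, the growth factor-induced transcription factor, stood at 1849, 1445 and 1334 against 1186, 1030 and 1056 (log2 -0.48 ± 0.20, adjusted p = 0.344), and its relatives MYCL and MYCN lay higher by 0.82 ± 0.22 and 0.72 ± 0.26 (adjusted p = 0.229 and 0.293). None of the 5 overlapped, but the second probe set of MYCL gave -0.15 ± 0.45 and 1 of the 2 others of MYCN -0.25 ± 0.52. That of MYCN had means of 60.8 and 37.0, at the level of background, and says little in either direction. At 24 h against 3 h, ID1 and MYC had both fallen past the threshold (log2 -1.16 and -1.42, adjusted p = 0.00522 and 0.00416). Of the 22 tested in the list, 3 were all higher (13.6%) and 4 all lower (18.2%), against 10.3% and 7.09% of all genes and 6.44% and 12% of the brightest tertile, which holds 16 of the 22. The median was -0.14, and in limma 0 passed, with 2 higher and 4 lower at an unadjusted p under 0.05.

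Genes of noradrenergic identity showed no common direction. Of 25 tested, 4 were all higher and 4 all lower (16% each, against 10.3% and 7.09% of all genes). In the brightest tertile, which holds 16 of the 25, the shares were 6.44% and 12%. The median was -0.09, and in limma 0 passed, with 4 higher and 5 lower at an unadjusted p under 0.05. HAND1, a bHLH factor of sympathetic and heart development, was at 4883, 4526 and 7297 against 2412, 2536 and 2449 (log2 -1.14 ± 0.21, adjusted p = 0.0643). SOX11, a factor of immature neurons, was at 9385, 9286 and 9412 against 5780, 5882 and 5935, very even on each side (log2 -0.67 ± 0.14, adjusted p = 0.0798). KLF7 and INSM1, factors of neuronal and neuroendocrine differentiation, lay higher without overlap, by 0.53 ± 0.14 and 0.64 ± 0.18 (adjusted p = 0.213 and 0.232). DBH, which turns dopamine into noradrenaline, lay lower without overlap (log2 -0.38 ± 0.16, adjusted p = 0.356).

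The secretory granule proteins CHGA and CHGB were near equal at both times (log2 -0.02 ± 0.20 and 0.02 ± 0.14). CHGB, however, was at 12238, 12200 and 10566 at 24 h, against 3786, 3860 and 3482 at 3 h and 3655, 3795 and 3831 at 48 h. It rose by 1.65 from 3 to 24 h (limma adjusted p = 6.91e-05) and fell by 1.63 from 24 to 48 h (adjusted p = 8.14e-05), so its 24 h level stood above both end points. Over all genes, 158 were higher at 24 than at 3 h (2.2%) and 93 lower (1.3%), and from 24 to 48 h 4 were higher (0.0557%) and 7 lower (0.0975%). These comparisons share arrays with the one between 48 and 3 h.

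Of 27 neuronal growth proteins tested, 6 were all higher (22.2%, against 10.3% of all genes) and 2 all lower (7.41%, against 7.09%). In the brightest tertile, which holds 14 of the 27, the shares were 6.44% and 12%. The median was 0.11, and 0 passed limma's test, with 3 higher and 2 lower at an unadjusted p under 0.05. BASP1, a growth cone protein, was at 1016, 1031 and 1172 against 1442, 1490 and 1528 (log2 0.47 ± 0.15, adjusted p = 0.245). GAP43, another one, was higher by 0.42 ± 0.21 without overlap, and STMN2, which regulates microtubules, by 0.34 ± 0.19 with overlap. MARCKSL1 was lower by 0.57 ± 0.22, with 21040 on replicate 3 of 3 h against 12740 and 11089 on the others, and its log2 difference was -0.30 without that array.

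Genes of cholinergic transmission, the system on which sarin acts, are given here without sarin. BCHE, butyrylcholinesterase, was at 1354, 1828 and 1342 at 3 h and 2038, 2302 and 2224 at 48 h (log2 0.55 ± 0.16, limma adjusted p = 0.241). CHRNA3, a ganglionic nicotinic receptor subunit, was at 13322, 13984 and 22424 against 10417, 11387 and 11088 (log2 -0.56 ± 0.21, adjusted p = 0.317). Neither overlapped, but the highest CHRNA3 value is again replicate 3 of 3 h, and without it the difference was -0.32. Of 11 tested, 3 were all higher (27.3%, against 10.3% of all genes) and 1 all lower (9.09%, against 7.09%). In the dimmest tertile, which holds 6 of the 11, the shares were 13.8% and 2.42%. The list's median was -0.05, and its sign turned under 4 of 21 alternatives. In limma 0 passed, and at an unadjusted p under 0.05 there were 3 higher and 1 lower. ACHE, acetylcholinesterase, lay below the level filter, at means of 189.3 and 242.6 and above background on 2 and 3 arrays.

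Lipid synthesis genes were split. Of 30 tested, 4 were all higher (13.3%, against 10.3% of all genes) and 2 all lower (6.67%, against 7.09%), with a median of 0.00. In the brightest tertile, which holds 15 of the 30, the shares were 6.44% and 12%. In limma 0 passed, with 3 higher and 2 lower at an unadjusted p under 0.05. SQLE, the squalene epoxidase, was at 3538, 3739 and 4363 against 1883, 2245 and 2822 (log2 -0.75 ± 0.18, adjusted p = 0.152). HMGCS1, the HMG-CoA synthase of the sterol pathway, was at 992.9, 953.2 and 1090 against 605.2, 645.8 and 557.9 (log2 -0.73 ± 0.19, adjusted p = 0.190). ELOVL6, which lengthens fatty acids, went the other way without overlap (log2 0.63 ± 0.18, adjusted p = 0.232).

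Of 68 splicing factors tested, 56 lie in the brightest tertile. The list had 12 members all lower (17.6%, against 12% there) and 2 all higher (2.94%, against 6.44% there). The median was -0.08, and 0 passed limma's test, with 13 lower and 3 higher at an unadjusted p under 0.05. U2AF1, which recognises the 3′ splice site, was at 8043, 7446 and 9373 against 6136, 4723 and 4782 (log2 -0.67 ± 0.16, adjusted p = 0.129). CCNL2, a cyclin of nuclear speckles, was higher (log2 0.62 ± 0.18, adjusted p = 0.233) and gave -0.14 against the sarin-exposed 3 h arrays. Lysosome and autophagy genes had 8 of 45 all lower (17.8%, against 7.09% of all genes and 12% of the brightest tertile, which holds 23 of them). The 2 all higher were 4.44%, against 10.3% of all genes and 6.44% of that tertile. In limma 0 passed, with 7 lower and 2 higher at an unadjusted p under 0.05. Those with the smallest p were GABARAPL2 (log2 -0.49 ± 0.17), ATP6V1B2 (-0.45 ± 0.17) and MAP1LC3B (-0.43 ± 0.16), proteins of the autophagosome and, for ATP6V1B2, the proton pump. The second probe set of MAP1LC3B gave 0.09 ± 0.19 with overlap. In ATP6V1B2 the 3 h arrays were 4559, 4059 and 6543, the last on replicate 3.

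At the cell surface, THBS1, the matrix protein thrombospondin 1, was at 354.2, 528.4 and 451.2 against 790.9, 893.3 and 943.5 (log2 0.97 ± 0.21, limma adjusted p = 0.106). It was 1 of 3 members all higher among 36 matrix and flat-cell genes (8.33%, below the 10.3% of all genes), with 2 all lower (5.56%, against 7.09%). The median was 0.04, and 0 passed the test, with 1 in each direction at an unadjusted p under 0.05. VIM, at 28551, 22178 and 52122 against 40538, 26800 and 25637, and FN1 (log2 0.05 ± 0.17) overlapped. Among 27 adhesion genes, 5 were all higher (18.5%, against 10.3% of all genes) and 1 all lower (3.7%, against 7.09%). In the dimmest tertile, which holds 12 of the 27, the shares were 13.8% and 2.42%. In limma 0 passed, with 4 higher and 1 lower at an unadjusted p under 0.05. The heparan sulfate proteoglycan SDC1 was higher by 0.84 ± 0.20 (adjusted p = 0.158) and the neural adhesion molecule L1CAM by 0.63 ± 0.22 (adjusted p = 0.286), and ALCAM was lower at 6424, 4941 and 6782 against 3600, 3899 and 3468 (log2 -0.71 ± 0.16, adjusted p = 0.112). The second probe set of ALCAM gave 0.14 ± 0.20 with overlap, and the mean of both -0.29.

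Among cytosolic ribosomal proteins 1 array decided the value. Of 51 tested, 50 lie in the brightest tertile. In all, 2 (RPS25 and RPL36, 3.92%) were all higher and 0 all lower, against 6.44% and 12% of that tertile. In limma 0 passed, with 2 higher and 0 lower at an unadjusted p under 0.05. The list's median was 0.84 above the untreated mean on replicate 3 of 3 h and reached 0.40 below it on another 3 h array, while the 48 h arrays lay between 0.08 below and 0.25 above. The median difference was -0.08 over all arrays, 0.28 at the highest and -0.29 at the lowest with 1 array left out, and 0.38 against the sarin-exposed 3 h arrays. No direction is therefore given for these genes.

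**Figure D5:**
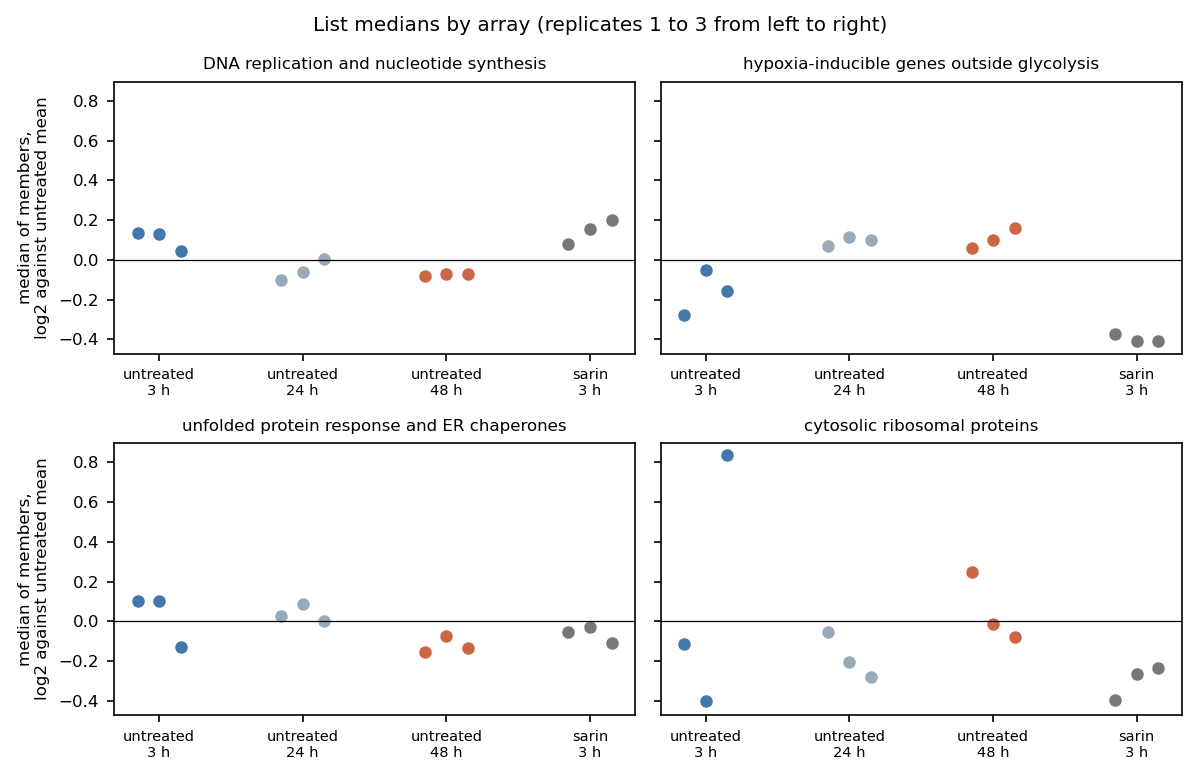
Median of the tested members of 4 lists on each array, as log2(signal + 16) relative to the mean of the 9 untreated arrays (vertical axis), in untreated cells at 3, 24 and 48 h and sarin-exposed cells at 3 h. For DNA replication (0.05 to 0.14 at 3 h) and hypoxia-inducible genes (-0.28 to -0.05 at 3 h) the 48 h arrays do not overlap those of 3 h, and for ribosomal proteins replicate 3 of 3 h stands at 0.84.

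Of immediate early and AP-1 genes 19 were tested, with 2 all higher (10.5%) and 3 all lower (15.8%), against 10.3% and 7.09% of all genes, and a median of -0.02. In limma 0 passed, with 1 higher and 3 lower at an unadjusted p under 0.05. FOS, an activity-induced transcription factor, lay below the level filter. It was at 243.6, 260.9 and 128.5 at 3 h, above background on 2 arrays, and at 64.7, 25.0 and 71.7 at 48 h, not above background on any. Its measured means were 211 and 53.8, and it did not pass without the level filter (limma adjusted p = 0.237).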

How the data were processed

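Arrays held cRNA from total RNA of SH-SY5Y cells, per the labels. The authors deposited 1 intensity per probe set and array, on a linear scale, and the submitters' processing notes name MAS5. Version, target and filters of that step: not given in the sources used here. Of 22283 probe sets, 19065 have 1 gene symbol in the platform annotation, 1043 several and 2107 none, and 68 are controls. The first were used, and 19053 were found in RefSeq (GRCh38.p14). The brightest probe set stood for its gene, and the upper 60% of genes by mean log2 level over the 9 untreated arrays (signal above 329) were tested. A mean per group was fitted to log2(signal + 16) on these 9 arrays with limma 3.58.1 (lmFit, eBayes with a trend, R 4.3.3). Tests were two-sided with Benjamini-Hochberg adjustment, on 6 residual and 8.03 prior degrees of freedom. Values with ± are standard errors. Above background means brighter than the 90th percentile of that array's 27 bacterial probe sets that were not spiked. Lists are described by counts and medians, without a test.

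The number of arrays limits the precision. On simulated data for this comparison, with 200 of 7178 genes changed, 0%, 66% and 94.5% of changes of 0.5, 1 and 2 (log2) were recovered. The simulated spread was independent between genes and arrays, without shifts of a whole array such as that of replicate 3 at 3 h. Recovery on the real arrays may therefore differ. Members, lists and the rule for named genes were chosen with earlier results of these data known. The rule takes genes past the threshold without overlap, the 5 with the smallest p in a direction with fewer, the 4 smallest p of each list and a fixed panel. Alternatives were other pseudocounts, filters, scalings, probe set summaries, limma settings and sets of arrays, a block by replicate number, and fits without single arrays. Scaling to 9 spike-in probe sets and the sarin 3 h arrays as reference were added after seeing the data. Results of 24 against 3 h and 48 against 24 h are context.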

Additional observations from a re-analysis of the deposited data

How the results depend on the processing

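The 8 genes past the threshold between 48 and 3 h were 3 without the level filter, 21 in the upper 40% of genes, 5 with quantile normalization, 4 without a trend, 5 with a robust fit, 190 with array weights, and 3, 35 and 42 in fits on 6, 18 and 15 arrays. Scaled to the spike-ins they were also 8, but 0 higher and 8 lower, with 2 of the 8 genes kept. Leaving out 1 array gave 2 (without 48 h replicate 1) to 120 genes (without 3 h replicate 2). The counts were 3 without 48 h replicate 2 or 3, 5 without 3 h replicate 1 and 9 without 3 h replicate 3, of which 4 were among the 8. With the sarin 3 h arrays as reference the count was 391, with 6 of the 8 genes kept. Between 3 and 48 h arrays of the same replicate number, correlations of deviations were 0.27, 0.30 and -0.01, and between different numbers -0.38 to 0.18. A replicate block gave 8 genes, of which 6 were among the 8, and 1060 genes at an unadjusted limma p under 0.05 against 914 without it. For 24 against 3 h the block gave 373 genes against 251. Whether arrays of the same replicate number share a batch was not tested. For 24 against 3 h, 251 genes became 160 without the filter, 394 over every probe set, 841 with array weights, 124 scaled to spike-ins, 54, 408 and 661 on 6, 18 and 15 arrays, and 41 to 543 with 1 array left out. Of these genes 62.9% were higher, but 35.6% after median centring, 50.9% in the upper 40% of genes and 0 scaled to spike-ins. For 48 against 24 h, 11 became 5, 23, 7, 4, 152 and 0 without the filter, with quantile normalization, with the mean of probe sets, without a trend, with array weights and scaled to spike-ins, 24, 31 and 42 on 6, 18 and 15 arrays, and 4 to 7 with 1 array left out. The cause of these differences was not tested.

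TCTN2 and SCD5 passed under all 21 alternatives, the 2 chosen after seeing the data aside, DDIT4 under 20 (not without 48 h replicate 1), ZNF253 under 15, APP under 13, PBX2 under 9, and CIB2 and ORAI3 under 7. With 1 of the 6 arrays left out, ZNF253 and APP passed in 2 of 6 fits and CIB2, ORAI3 and PBX2 in 1. All 8 kept their direction under these 21. Signs turned only in genes not past the threshold: FEN1 gave 0.081 on 18 arrays, CDK1 0.032 with the mean of probe sets, CHGB -0.023 after median centring, and CCNB1, CHGA and VIM 0.032, 0.069 and 0.038 after quantile normalization. Against the sarin 3 h arrays MKI67 gave 0.13, CCNB1 0.31, CHGA 0.053, VIM 0.089 and CCNL2 -0.14. With 1 array left out MKI67 ranged from -0.16 to 0.11, CCNB1 from -0.15 to 0.11, CHGA from -0.13 to 0.085, CHGB from -0.024 to 0.050, VIM from -0.35 to 0.27 and FN1 from -0.018 to 0.12. Signal near background limits what can be said of dim genes such as TH and FOS.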
